A study of Mus musculus with 1 sample.

Results

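The genes that act in the last steps of canonical WNT signalling were examined across the cells of the early postnatal mouse adrenal gland. The 9 genes are *Ctnnb1*, which encodes β-catenin, the 4 genes of its DNA-binding partners (*Lef1*, *Tcf7*, *Tcf7l1* and *Tcf7l2*) and 4 genes that the pathway commonly switches on (*Axin2*, *Nkd1*, *Apcdd1* and *Sp5*). They were chosen by symbol, and all 9 are present among the 32285 genes of the matrix. The library was made from wild-type mice at postnatal day 15, on a mixed background backcrossed on CD1, with no treatment and no transgene. The 10 adrenals of 5 mice of mixed sex were pooled, and fat and excess cortex were trimmed by hand before digestion. Single cells were captured with droplet chemistry that reads the 3′ end of each transcript, and every transcript was tagged with a unique molecular identifier (UMI). With 1 pooled library there are no replicates, and no comparison below carries a test between animals.

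In canonical WNT signalling a ligand binds a Frizzled receptor together with LRP5 or LRP6, and the destruction complex of APC, AXIN and GSK3 stops degrading β-catenin. β-catenin then enters the nucleus and joins TCF/LEF proteins, which otherwise hold their targets silent with TLE co-repressors. In the adrenal gland the pathway is best known from the outer cortex, where it is active in the cells beneath the capsule and in the zona glomerulosa and weakens towards the inner zones. The medulla holds chromaffin cells, which make adrenaline or noradrenaline, and glia-like sustentacular cells.

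The TCF/LEF proteins bind a short core motif, so the 250 bases before the transcription start were searched on both strands for CTTTGNN, where each N could be A or T. RefSeq (GRCm38.p6) gave windows for 8 of the 9 genes. The windows of *Sp5* and *Axin2* are shown because *Sp5* was the target gene whose window held matches, and *Axin2* is the gene most often used as a readout of the pathway. Matches are in capitals.
Sp5: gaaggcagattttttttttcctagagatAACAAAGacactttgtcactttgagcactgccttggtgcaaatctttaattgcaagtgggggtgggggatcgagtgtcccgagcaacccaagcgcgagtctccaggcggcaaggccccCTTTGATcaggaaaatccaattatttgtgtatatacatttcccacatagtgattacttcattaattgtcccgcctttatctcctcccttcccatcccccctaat
Axin2: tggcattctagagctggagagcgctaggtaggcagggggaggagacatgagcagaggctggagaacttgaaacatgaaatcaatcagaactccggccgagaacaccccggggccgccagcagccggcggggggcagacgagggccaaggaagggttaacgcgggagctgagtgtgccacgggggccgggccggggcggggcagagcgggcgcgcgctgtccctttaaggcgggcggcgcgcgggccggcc
The *Sp5* window (chr2:70474673-70474922, plus strand) held AACAAAG at -222 and CTTTGAT at -104 from the start, whereas the *Axin2* window (chr11:108920099-108920348, plus strand) held none. Of the other genes, 1 of 4 *Lef1* windows (chr3:131156044-131156293, plus strand) held TACAAAG at -147, and 1 of 2 *Tcf7l2* windows (chr19:55895071-55895320, plus strand) held CTTTGTT at -14. The windows of *Tcf7*, *Tcf7l1*, *Ctnnb1* and *Nkd1* held none. Among all 32851 promoter windows of this length, 14.8% held at least 1 match and 1.43% held 2 or more. A match describes the letters of the window and is not a measured binding site.

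In the annotation of the same build, *Axin2* is at chr11:108920349-108950783, *Lef1* at chr3:131110471-131224356, *Tcf7l2* at chr19:55741820-55933654, *Ctnnb1* at chr9:120929216-120960507, *Nkd1* at chr8:88521354-88594884 and *Sp5* at chr2:70474923-70477729, all on the plus strand. *Tcf7* at chr11:52252371-52283014 and *Tcf7l1* at chr6:72626378-72789254 are on the minus strand. *Tcf7l2* overlaps 1 gene on its own strand, *Ppnr*, so its count is less certain than those of the other members.

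The matrix held 11214 barcodes, of which 10139 passed the filters of 500 to 5000 genes and at most 20% mitochondrial UMIs, with a median of 3567 UMIs per cell. Of these, 9107 cells fell into 14 classes named from marker genes, and 1032 cells from mixed clusters were left out, of which 53.0% were called doublets. Every class is called "-like" because its name rests on markers and not on position in the tissue. Outer cortex-like cells (124) had *Dab2* in 95.2% and *Vsnl1* in 65.3% of cells but the zona glomerulosa enzyme gene *Cyp11b2* in only 24.2%. Although excess cortex had been trimmed, 3429 cortex-like and 2134 endothelial-like cells stood beside 2786 medullary ones. As a measure of free RNA in the droplets, the adrenaline gene *Pnmt* was found in sustentacular-like cells at 1.96% and in immune-like cells at 1.21% of its level in the adrenaline class. It was higher in the 2 small classes, at 478 UMIs per 1000000 in fibroblast-like and 319 in lymphocyte-like cells, against 11673 in the adrenaline class. Levels are UMIs of a gene per 1000000 UMIs of a class (CPM). Their intervals, exact Poisson for levels, exact binomial for shares and exact conditional for ratios, are at 95% and cover counting error only. The fibroblast-like class was mixed by its markers. Of 6 fibroblast markers 4 were in at least 50% of its cells, with a sum of 3208 CPM. All 8 endothelial markers were in at least 20% of them, with a sum of 3872 CPM, and the chromaffin markers summed to 3155 CPM. The part of other cell types in the levels of this class was not tested. Since the clusters were built from the whole transcriptome, and *Axin2*, *Lef1*, *Tcf7*, *Tcf7l2* and *Nkd1* were each among the variable features of at least 1 clustering step, differences between classes are descriptions.

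*Ctnnb1* was the abundant member, and the others were sparse. *Ctnnb1* had 9491 UMIs in the 10139 cells, was detected in 48.6% of them and ranked 753rd of 21077 detected genes. *Tcf7l2* followed with 2037 UMIs, *Tcf7l1* with 680, *Axin2* with 529, *Tcf7* with 428, *Lef1* with 388, *Nkd1* with 229, *Apcdd1* with 104 and *Sp5* with 15. All target genes were therefore missing from most cells at this depth, and an absent UMI in a single cell says little.

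**Figure D1:**
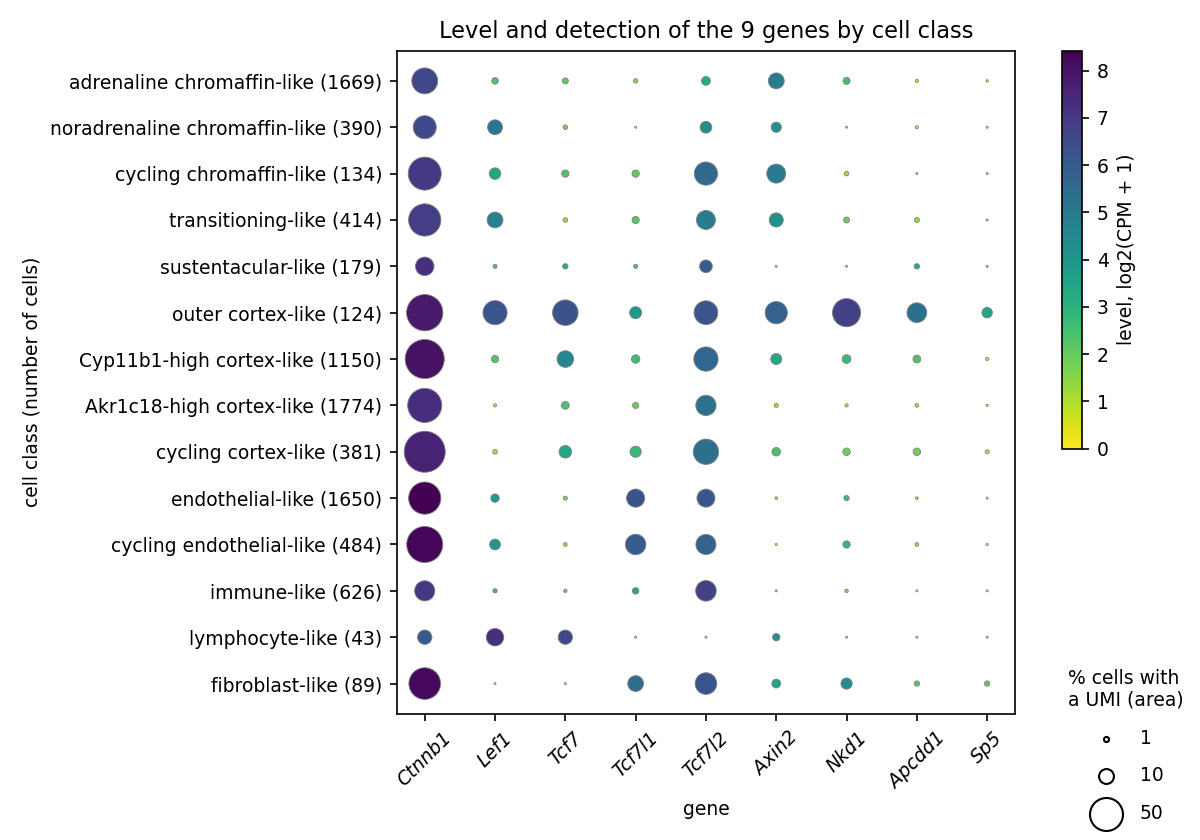
Level and detection of the 9 genes in the 14 cell classes, with 1 row per class and 1 column per gene. Colour gives the level as log2(CPM + 1) and dot area the percentage of cells with at least 1 UMI. The outer cortex-like row is dark for *Axin2*, *Nkd1*, *Lef1*, *Tcf7* and *Apcdd1*, *Tcf7l1* is dark in the endothelial-like rows, and *Ctnnb1* is dark throughout.

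The 4 target genes had their highest measured levels in outer cortex-like cells. *Nkd1*, which encodes a Dishevelled-binding antagonist of the pathway, reached 112 CPM there (86.8 to 142) and was detected in 36.3% of cells. *Axin2*, which encodes a scaffold of the destruction complex and acts as negative feedback, reached 56.8 CPM (39.4 to 79.4). *Apcdd1*, a membrane inhibitor of WNT reception, reached 40.1 CPM (25.7 to 59.7). *Sp5*, a zinc finger transcription factor gene and the one with both motif matches in the window printed above, had 6 of its 15 UMIs in these 124 cells, which is 10.0 CPM (3.68 to 21.8). Shallow classes limit this order, since 0 UMIs in lymphocyte-like cells still allow 50.4 CPM of *Apcdd1* or *Sp5*, and 0 in sustentacular-like cells 13.0 CPM of *Sp5*. *Axin2* had 1 UMI in lymphocyte-like cells, where the interval reached 93.6 CPM. For *Nkd1* the 50.4 CPM allowed in lymphocyte-like cells lies below the outer cortex-like interval. Among the chromaffin-like classes only *Axin2* of these 4 exceeded 5 CPM.

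*Axin2* was present in both catecholamine lineages and scarce in the endothelium. It stood at 30.6 CPM in cycling chromaffin-like (20.5 to 44.0), 29.9 in adrenaline chromaffin-like (26.1 to 34.1), 17.4 in transitioning-like (12.6 to 23.3) and 16.7 in noradrenaline chromaffin-like cells (10.5 to 25.3). In the cortex outside the outer class it stood at 9.70 CPM in *Cyp11b1*-high, 4.21 in cycling and 1.03 in *Akr1c18*-high cells. The remaining classes had few molecules. Fibroblast-like cells had 3 UMIs (10.5 CPM, 2.17 to 30.8) and lymphocyte-like cells 1 (16.8 CPM, 0.425 to 93.6). Both classes are small, and these wide intervals overlap those of the chromaffin-like classes. Endothelial-like cells had 2 UMIs (0.518 CPM). Free RNA gave endothelial-like cells 0.818% of the adrenaline class's level of *Pnmt*, and its part in these few UMIs was not tested. No UMI was found in 179 sustentacular-like, 484 cycling endothelial-like or 626 immune-like cells. For the shallow sustentacular-like class a count of 0 still allows 13.0 CPM, so a level like that of the *Cyp11b1*-high cells was not detectable there. The intervals of the outer cortex-like and cycling chromaffin-like classes overlapped, and so did those of the noradrenaline and transitioning classes.

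*Nkd1* had a similar summit and a different base. Beyond the outer cortex it stood at 17.6 CPM on 5 UMIs in the fibroblast-like class, whose markers were mixed. It stood at 6.09 CPM in cycling endothelial-like, 5.68 in *Cyp11b1*-high, 5.18 in endothelial-like and 4.76 in adrenaline chromaffin-like cells. It was lower still in transitioning-like (2.76 CPM), cycling cortex-like (2.52), immune-like (1.53), cycling chromaffin-like (1.06) and *Akr1c18*-high cells (0.561). No UMI was found in noradrenaline chromaffin-like, sustentacular-like or lymphocyte-like cells. The classes between 4.76 and 6.09 CPM had overlapping intervals and cannot be ordered.

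*Apcdd1* and *Sp5* had most of their UMIs in the cortex. Of the 104 *Apcdd1* UMIs, 71 were in cortex-like cells, with 4.16 CPM in *Cyp11b1*-high and 0.748 in *Akr1c18*-high cells, against 5 UMIs in adrenaline and noradrenaline chromaffin-like cells together (0.576 CPM). Sustentacular-like cells stood at 8.65 CPM on 2 UMIs (1.05 to 31.3), with a ratio to chromaffin-like cells of 15.0 (1.43 to 91.7). Of the 15 *Sp5* UMIs, 12 were in cortex-like cells and 1 in chromaffin-like cells. The 2134 endothelial-like cells held 0, which allows up to 0.529 CPM, a level close to the cortex-wide 0.544 CPM, so a difference in *Sp5* between the 2 tissues was not detectable.

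The cortex was compared as outer cortex-like cells against all other cortex-like cells (3305). Of the members, 8 had at least 20 UMIs in the pair, and 6 of these 8 were higher by 2-fold or more in the outer class (*Axin2*, *Lef1*, *Tcf7*, *Tcf7l1*, *Nkd1* and *Apcdd1*), while 0 were lower. Of the 12199 genes with that many UMIs, 14.4% were higher and 12.1% lower by that margin. The ratio was 42.9 for *Nkd1* (29.7 to 62.4), 42.7 for *Lef1* (26.9 to 68.0), 18.3 for *Apcdd1* (10.7 to 30.6) and 12.7 for *Axin2* (8.33 to 19.0). It was smaller for the other TCF genes, at 6.79 for *Tcf7* (4.85 to 9.34), 3.30 for *Tcf7l1* on 8 UMIs (1.38 to 6.80) and 1.79 for *Tcf7l2* (1.29 to 2.41). *Ctnnb1* itself differed little, with a ratio of 1.15 (0.961 to 1.36). *Sp5* had 6 UMIs on each side and a ratio of 35.9 (9.60 to 134).

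The other cortical classes formed a descending series for the same genes. Outer cortex-like cells were also higher than *Cyp11b1*-high cells by 2-fold or more for 6 of 8 members, where 10.3% of genes were higher and 10.1% lower. *Cyp11b1*-high cells, which carry the enzyme gene of the last step of corticosterone synthesis, were in turn higher than *Akr1c18*-high cells for 6 of 8 members, where 13% of genes were higher and 7.24% lower. *Axin2* was higher by 9.43-fold in that second step (4.96 to 19.7), *Nkd1* by 10.1-fold (4.27 to 29.2), *Lef1* by 6.91-fold (2.81 to 20.4), *Apcdd1* by 5.56-fold (2.49 to 14.0) and *Tcf7* by 5.25-fold (3.76 to 7.45).

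For *Axin2*, *Nkd1* and *Lef1* the descent continued inside the *Cyp11b1*-high class. Its 2 clusters were one of 464 cells with *Atf3* as a leading gene and *Dab2* at a high level, and one of 686 cells led by *Cyp11b1* and *Hao2*. *Axin2* was at 19.3 CPM in the first and 3.05 in the second (ratio 6.32, 3.42 to 12.6), *Nkd1* at 11.8 and 1.41 (8.41, 3.50 to 24.4) and *Lef1* at 7.78 and 1.17 (6.63, 2.46 to 22.3). *Tcf7* changed less between them, from 27.4 to 19.2 CPM (1.42, 1.03 to 1.96), and *Ctnnb1* hardly at all, from 278 to 250 CPM. The ratios of *Apcdd1* (1.65, 0.753 to 3.64) and *Tcf7l1* (1.17, 0.578 to 2.32) had intervals that included 1. *Axin2*, *Nkd1*, *Lef1* and *Tcf7* were among the variable features that built the cortex clusters and so helped to draw this split, whereas *Apcdd1* and *Tcf7l1* were not. The ratios of this split were not recomputed with the members left out of the variable features. In the 3 *Akr1c18*-high clusters *Axin2* lay between 0.776 and 2.12 CPM and *Nkd1* between 0 and 2.65 CPM. In the one of 539 cells *Nkd1* and *Lef1* were each at 2.65 CPM on 5 UMIs (0.862 to 6.19). By value both were above the second *Cyp11b1*-high cluster there, so the descent was not strict. *Ctnnb1* still reached 154 to 164 CPM in the *Akr1c18*-high clusters, so the gene of the shared effector stayed abundant where the target genes were nearly gone.

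**Figure D2:**
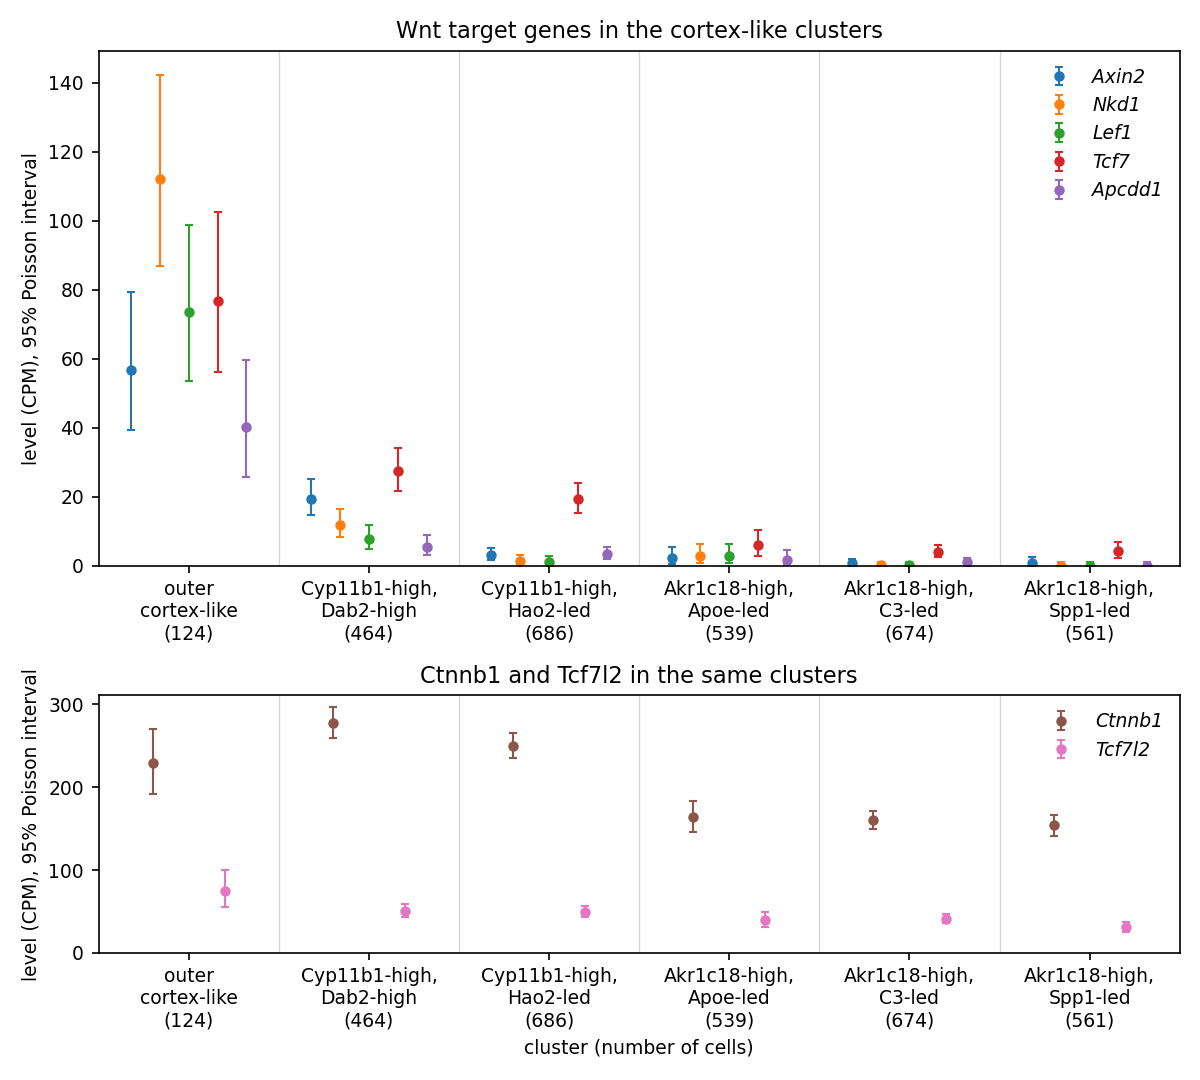
Levels of *Axin2*, *Nkd1*, *Lef1*, *Tcf7* and *Apcdd1* (upper panel) and of *Ctnnb1* and *Tcf7l2* (lower panel) in the clusters of the cortex except the cycling one, ordered from outer cortex-like through *Cyp11b1*-high to *Akr1c18*-high clusters. Points give CPM and bars the 95% Poisson interval. The target genes step down from the first cluster (*Nkd1* 112, then 11.8 and 1.41 CPM, and 0 to 2.65 CPM in the *Akr1c18*-high clusters), whereas *Ctnnb1* ranges from 154 to 278 CPM.

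*Wnt4*, a ligand gene of the outer cortex and no member of the set, was also used to order the cortical cells. It was detected in 42.8% of *Cyp11b1*-high and 1.47% of *Akr1c18*-high cells. This ordering therefore largely repeats the contrast between those classes and is not independent of it. The outer cortex-like class was left out, and the other cortex-like cells were divided by their own *Wnt4* UMIs into 2406 cells with 0, 445 with 1 to 4 and 73 with 5 or more (cycling cortex-like cells are not among them). Across the 3 bins *Axin2* went from 1.55 to 12.6 and 29.0 CPM, *Nkd1* from 0.563 to 7.47 and 22.4 CPM and *Lef1* from 0.493 to 4.08 and 19.7 CPM. *Tcf7* went from 7.67 to 25.1 and 34.2 CPM. The intervals of the first and last bin were apart for all 4 genes. *Ctnnb1* went from 181 to 284 and 240 CPM. The median depth also rose across the bins, from 4788.5 to 5671 and 9628 UMIs per cell, and its part in these levels was not tested beyond the division by total UMIs.

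The 4 TCF/LEF genes were present in different proportions in the classes. Because 3′ counting gives about 1 UMI per transcript whatever its length, the UMIs of the 4 genes were also added and their shares compared, although capture can differ between genes. Together they reached 252 CPM in lymphocyte-like (15 UMIs), 239 in outer cortex-like, 163 in endothelial-like, 133 in cycling endothelial-like and 129 in immune-like cells. Their sum was 17.1 CPM in adrenaline and 55.4 in noradrenaline chromaffin-like cells. *Tcf7l2* made up 57.7% of the family over all cells, *Tcf7l1* 19.2%, *Tcf7* 12.1% and *Lef1* 11.0%. Outer cortex-like cells were the class where *Tcf7* (32.2%), *Tcf7l2* (31.5%) and *Lef1* (30.8%) stood nearly level.

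**Figure D3:**
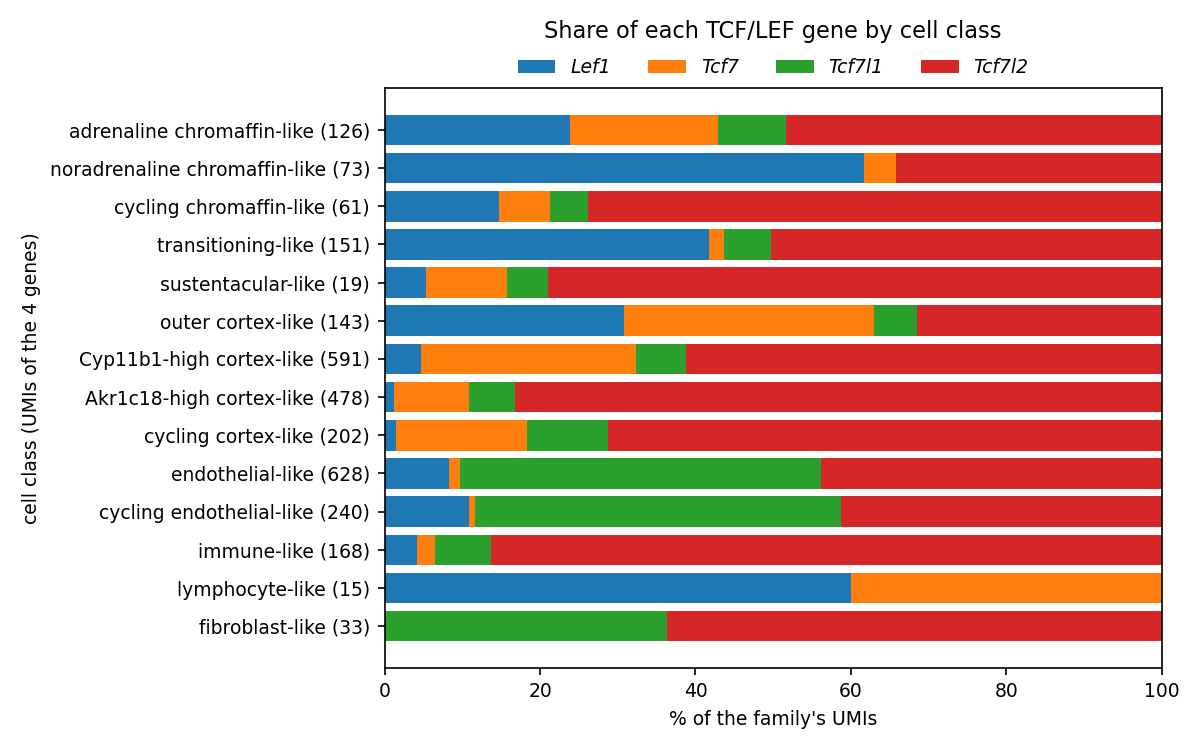
Share of each TCF/LEF gene among the UMIs of the 4 genes, as a percentage, for each cell class, with the number of UMIs in brackets. *Tcf7l1* takes 46.5% in endothelial-like, *Tcf7l2* 86.3% in immune-like and *Lef1* 61.6% in noradrenaline chromaffin-like cells.

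*Lef1*, whose protein mostly activates transcription with β-catenin, was highest by value in lymphocyte-like cells, at 151 CPM on 9 UMIs (69.2 to 287). It followed in outer cortex-like (73.5 CPM, 53.4 to 98.7), noradrenaline chromaffin-like (34.2, 24.9 to 45.7) and transitioning-like cells (24.9, 19.1 to 31.8). Both endothelial classes came next, at 14.4 CPM in cycling and 13.5 in non-cycling cells. The rest lay below 10 CPM, with 9.51 in cycling chromaffin-like, 5.36 in immune-like, 4.33 in sustentacular-like (1 UMI), 4.08 in adrenaline chromaffin-like, 3.88 in *Cyp11b1*-high, 0.841 in cycling cortex-like and 0.561 in *Akr1c18*-high cells. Fibroblast-like cells had 0 UMIs, which allows 10.5 CPM. The lymphocyte-like and outer cortex-like intervals overlapped, as did those of the noradrenaline and transitioning classes.

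*Tcf7*, the closest relative of *Lef1*, shared its first 2 classes but not the medullary ones. It stood at 101 CPM in lymphocyte-like cells on 6 UMIs (37.0 to 219), 76.9 in outer cortex-like (56.3 to 103) and 22.6 in *Cyp11b1*-high cells (19.2 to 26.3). Cycling cortex-like cells had 9.54 CPM, sustentacular-like cells 8.65 on 2 UMIs, and every other class had 4.30 CPM or less, with no UMI in fibroblast-like cells. Chromaffin-like cells had 3.11 CPM.

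*Tcf7l1*, whose protein is mainly a repressor, marked the endothelium. It stood at 75.6 CPM in endothelial-like (67.2 to 84.8), 62.5 in cycling endothelial-like (51.5 to 75.2) and 42.2 in fibroblast-like cells (12 UMIs, 21.8 to 73.7). The fibroblast-like class of 89 cells also held the endothelial genes *Plvap* at 552 CPM and *Cldn5* at 278 CPM, and the part of endothelial RNA in its *Tcf7l1* level was not tested. Outer cortex-like cells had 13.4 CPM and immune-like cells 9.19, and all other classes had 5.89 CPM or less. No UMI was found in noradrenaline chromaffin-like or lymphocyte-like cells, which allows 2.28 CPM in the former and 50.4 CPM in the latter.

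*Tcf7l2* was the most widespread of the 4. It stood at 111 CPM in immune-like (93.7 to 131), 75.2 in outer cortex-like, 73.8 in fibroblast-like, 71.2 in endothelial-like, 64.9 in sustentacular-like (15 UMIs), 54.8 in cycling endothelial-like, 50.2 in *Cyp11b1*-high and 47.5 in cycling chromaffin-like cells. Lower levels were found in cycling cortex-like (40.4 CPM), *Akr1c18*-high (37.2), transitioning-like (29.98), noradrenaline (19.0) and adrenaline chromaffin-like cells (8.29). Lymphocyte-like cells had 0 UMIs, which allows 50.4 CPM. The chromaffin lineages were thus at the lower end for this gene while immune-like cells were at the upper end. The intervals of the outer cortex-like, fibroblast-like, endothelial-like and sustentacular-like classes overlapped throughout.

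*Ctnnb1* was the one member detected in all 14 classes, and its levels spanned a narrower range than those of the others. It was at 342 CPM in endothelial-like (324 to 361), 318 in cycling endothelial-like, 299 in fibroblast-like, 262 in *Cyp11b1*-high (250 to 274), 229 in outer cortex-like, 196 in cycling cortex-like, 159 in *Akr1c18*-high and 151 in sustentacular-like cells. It was at 131 CPM in immune-like, 129 in cycling chromaffin-like, 118 in transitioning-like, 97.2 in adrenaline (90.2 to 105) and 91.1 in noradrenaline chromaffin-like cells (75.5 to 109). The 2 chromaffin classes could not be told apart for *Ctnnb1*. Lymphocyte-like cells had 67.2 CPM on 4 UMIs. *Ctnnb1* also encodes the cadherin-bound pool of β-catenin at cell junctions, which a transcript count does not separate from the nuclear one.

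Noradrenaline and adrenaline chromaffin-like cells differed in opposite directions for *Lef1* and *Axin2*. *Lef1* was higher in noradrenaline cells (34.2 against 4.08 CPM) and *Axin2* was higher in adrenaline cells (29.9 against 16.7 CPM). Enough UMIs were found for 6 members, of which 2 were higher by 2-fold or more in noradrenaline cells (*Lef1* and *Tcf7l2*) and 1 was lower (*Nkd1*), where 6.13% of 11576 genes were higher and 8.79% lower. The *Lef1* ratio of noradrenaline to adrenaline was 8.38 (5.16 to 13.8) and that of *Tcf7l2* was 2.29 (1.38 to 3.70). *Nkd1* had 0 UMIs in 390 noradrenaline cells and 35 in 1669 adrenaline cells (4.76 CPM), and was at least 2.09-fold lower in the former with 3 counts in place of 0, while the exact interval of the ratio allows 1.61-fold. The *Axin2* ratio was 0.558 (0.343 to 0.867), and *Tcf7* (0.698, 0.135 to 2.30) and *Ctnnb1* (0.937, 0.766 to 1.14) had intervals that included 1.

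The noradrenaline cells were also set against each of the 3 adrenaline clusters. *Lef1* was higher in noradrenaline cells than in each of them, by 9.83-fold against the cluster led by *Pnmt* (830 cells), 7.96-fold against that led by *Olfm3* (715 cells) and 7.64-fold against that led by *Atf3* (124 cells), and all 3 intervals lay above 1. *Axin2* did not behave in this way. It was at 17.9 CPM in the *Pnmt*-led cluster (12.5 to 24.7), 34.3 in the *Olfm3*-led cluster (29.3 to 39.9) and 35.8 in the *Atf3*-led cluster (20.5 to 58.1), and the noradrenaline level was 0.935 of the first (0.524 to 1.63), 0.486 of the second (0.297 to 0.761) and 0.467 of the third (0.234 to 0.951). The *Tcf7l2* ratio was 5.46 against the *Pnmt*-led (2.30 to 15.0), 1.90 against the *Olfm3*-led (1.12 to 3.13) and 1.70 against the *Atf3*-led cluster, where the interval included 1 (0.638 to 5.68). The upper limit of the *Nkd1* ratio was 0.682 and 0.646 against the first 2 clusters and 1.81 against the *Atf3*-led one. The noradrenaline cells could not be told apart in *Axin2* from the *Pnmt*-led cluster, which had the lowest median depth of the 3 (2305 UMIs, against 5691 in the *Olfm3*-led cluster). With every cell thinned to 1000 UMIs the *Axin2* ratio was 0.301, on 3 UMIs in noradrenaline and 45 in adrenaline cells.

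**Figure D4:**
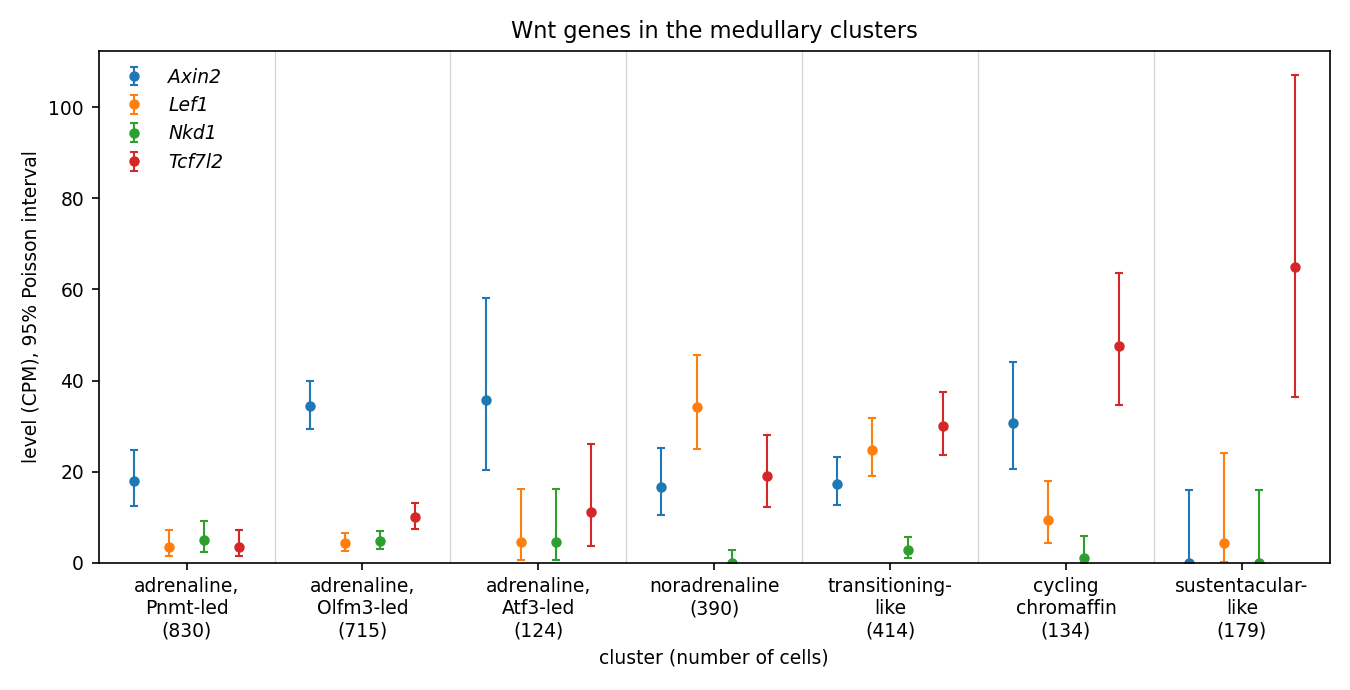
Levels of *Axin2*, *Lef1*, *Nkd1* and *Tcf7l2* in the 7 clusters of the medulla, as points in CPM with bars for the 95% Poisson interval. *Lef1* stands above the 3 adrenaline clusters in noradrenaline and transitioning-like cells (34.2 and 24.9 CPM), and *Axin2* is lower in the *Pnmt*-led (17.9 CPM) than in the *Olfm3*-led adrenaline cluster (34.3 CPM).

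Transitioning-like cells, which carry both sustentacular and chromaffin genes (*Chga* in 99.8% of 414 cells), showed a like division within 1 cluster. Against chromaffin-like cells 3 of 7 members were higher by 2-fold or more (*Lef1*, *Tcf7l1* and *Tcf7l2*) and 1 lower (*Tcf7*, on 3 UMIs), where 7.71% of genes were higher and 3.35% lower. The ratio was 2.87 for *Lef1* (2.02 to 4.07), 3.02 for *Tcf7l2* (2.19 to 4.17), 2.80 for *Tcf7l1* (1.03 to 7.43) and 0.622 for *Axin2* (0.441 to 0.861). The chromaffin-like reference was mostly adrenaline cells (1669, against 390 noradrenaline cells). Noradrenaline cells alone had *Lef1* at 34.2 and *Axin2* at 16.7 CPM, against 24.9 and 17.4 CPM in transitioning-like cells, with overlapping intervals. The part of this lineage mix in the ratios was not tested. The transitioning-like cells were further divided after the data had been seen. In the 259 cells where UMIs of the noradrenaline genes *Penk*, *Cox8b* and *Lix1* outnumbered those of *Pnmt*, *Lef1* was at 32.4 CPM and *Axin2* at 12.1 CPM, and in the other 155 cells *Lef1* was at 12.5 CPM and *Axin2* at 26.0 CPM. The ratio between these 2 groups, which had like median depths (5183 and 5178 UMIs), was 2.59 for *Lef1* (1.36 to 5.34), 0.464 for *Axin2* (0.241 to 0.877) and 0.102 for *Nkd1* on 1 and 6 UMIs (0.00221 to 0.838).

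Sustentacular-like cells held few or no molecules of the target genes at their depth but did hold *Tcf7l2*. Their *Sox10* was in 39.1% and *S100b* in 57.5% of 179 cells, with a median of 1149 UMIs per cell. Of 6 fibroblast markers, 3 were also in at least 25% of these cells and 2 in at least 50%. The summed level of the fibroblast markers was 2198 CPM, against 4379 CPM for the 6 sustentacular markers. *Axin2* had 0 UMIs against 27.9 CPM in chromaffin-like cells, and was at least 2.15-fold lower on the same rule (1.73-fold by the exact interval). With doublets removed before clustering, *Axin2* was detected in this class, at a ratio to chromaffin-like cells of 0.214. *Lef1* had 1 UMI (4.33 CPM), with a ratio to chromaffin-like cells of 0.500 (0.0125 to 2.88) that was 1.02 with doublets removed. *Nkd1* and *Sp5* had 0 UMIs, and *Apcdd1* and *Tcf7* had 2 each. *Tcf7l2* was at 64.9 CPM, which is 6.55 times the chromaffin-like level (3.51 to 11.4), and *Ctnnb1* was 1.57 times that level (1.09 to 2.21). By the 2-fold rule 2 of 6 members were higher (*Tcf7* and *Tcf7l2*) and 1 lower (*Axin2*), where 15% of genes were higher and 16% lower, so these counts lie near the background of this pair.

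Cycling chromaffin-like cells could not be told apart from other chromaffin-like cells in *Axin2* and *Lef1* and had more *Tcf7l2*. *Axin2* was at 30.6 against 27.9 CPM in other chromaffin-like cells (ratio 1.10, 0.720 to 1.62) and *Lef1* at 9.51 against 8.65 CPM (1.10, 0.484 to 2.20). Thinned to 1000 UMIs, the *Axin2* ratio was 0.639 on 2 UMIs, and as the mean of each cell's own CPM the *Lef1* ratio was 0.712. The reference mixes adrenaline and noradrenaline cells, with *Lef1* at 4.08 and 34.2 CPM. In the 106 cycling cells where *Pnmt* UMIs matched or outnumbered those of the noradrenaline genes, *Axin2* was at 39.3 CPM (26.1 to 56.8) and *Lef1* at 8.43 (3.09 to 18.3). In the other 28, *Axin2* was at 4.26 CPM on 1 UMI (0.108 to 23.7) and *Lef1* at 12.8 on 3 UMIs (2.64 to 37.4). Over all cycling chromaffin-like cells *Tcf7l2* was at 47.5 CPM, against 9.91 CPM in the other chromaffin-like cells (ratio 4.80, 3.27 to 6.96), or 2.56 after thinning on 4 UMIs. By the 2-fold rule 1 of 6 members was higher (*Tcf7l2*) and 1 lower (*Nkd1*, on 1 UMI), where 9.12% of genes were higher and 4.39% lower. In this class 11.9% of the 134 cells were called doublets and the cortical gene *Star* was at 585 CPM, against 27.7 in adrenaline cells. In the 103 cells that were neither called doublets nor held UMIs of 8 endothelial, immune and cortical genes, *Star* was still at 300 CPM and the *Tcf7l2* ratio was 5.67 (3.78 to 8.37).

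Cortex and chromaffin cells were set against each other as whole tissues. Cortex-like cells were higher by 2-fold or more for 5 of 8 members (*Tcf7*, *Tcf7l1*, *Tcf7l2*, *Ctnnb1* and *Apcdd1*) and lower for 2 (*Axin2* and *Lef1*), where 21.8% of 13807 genes were higher and 25.6% lower. *Axin2* was 4.74-fold higher in chromaffin-like cells (3.81 to 5.91) and *Lef1* 2.36-fold higher (1.70 to 3.27), although both were highest of all in the 124 outer cortex-like cells among cortex and medulla. *Ctnnb1* was 2.08-fold higher in the cortex (1.93 to 2.24) and *Tcf7l2* 4.34-fold higher (3.47 to 5.47). The whole-cortex values depend on the share of outer cells in this preparation, 124 of 3429.

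The endothelium combined high *Tcf7l1* and *Ctnnb1* with little *Axin2*, while the other targets varied. *Tcf7l1* was 16.6-fold higher than in cortex-like cells (13.2 to 21.0) and 56.3-fold higher than in chromaffin-like cells (31.1 to 114). *Axin2* was lower by 16.7-fold than in the cortex on 2 UMIs in 2134 cells (4.53 to 139) and by 79.1-fold than in chromaffin-like cells (21.7 to 657). *Lef1* was 3.75-fold higher than in the cortex (2.71 to 5.18), a ratio of 2.31 with cells thinned to 1000 UMIs (20 against 16 UMIs) and 2.58 as the mean of each cell's own CPM. *Nkd1* was at 5.47 CPM, a ratio of 0.981 to the cortex (0.639 to 1.46) and of 1.35 to chromaffin-like cells (0.808 to 2.26). *Apcdd1*, on 4 UMIs, had a ratio of 1.22 to chromaffin-like cells (0.243 to 5.69). *Tcf7* was 6.75-fold lower than in the cortex (3.72 to 13.7). Against the cortex 2 of 8 members were higher (*Lef1* and *Tcf7l1*) and 3 lower (*Axin2*, *Tcf7* and *Apcdd1*), where 23.2% of genes were higher and 22.6% lower. Against chromaffin-like cells 3 of 7 were higher (*Tcf7l1*, *Tcf7l2* and *Ctnnb1*) and 1 lower (*Axin2*), where 22.5% were higher and 25.7% lower.

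Among the endothelial clusters *Tcf7l1* and *Lef1* were distributed differently. The cluster of 190 cells with *Mgp* and *Fbln2* among its leading genes had *Tcf7l1* at 159 CPM (117 to 210), against 73.8 CPM in the largest cluster (63.9 to 84.7) and 50.9 in another of low depth (36.9 to 68.6). Its ratio to the largest cluster was 2.15 (1.54 to 2.95). *Lef1* had 1 UMI in that cluster and 44 in the largest, with a ratio of 0.1997 whose interval included 1 (0.00494 to 1.17). *Ctnnb1* was alike in the 3 clusters, at 363, 354 and 296 CPM.

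Immune-like cells, led by the macrophage gene *C1qa*, held mostly *Tcf7l2*. *Tcf7l2* made up 86.3% of the family there (80.2 to 91.1) and was 11.2-fold higher than in chromaffin-like cells (8.51 to 14.8). *Axin2* had no UMI in 626 cells and was at least 12.2-fold lower than in chromaffin-like cells on the 3-count rule (9.81-fold by the exact interval). By the 2-fold rule 2 of 7 members were higher (*Tcf7l1* and *Tcf7l2*) and 2 lower (*Axin2* and *Nkd1*), where 18.7% of genes were higher and 30.8% lower. Doublet calls covered 7.51% of these cells, and they held the endothelial gene *Plvap* at 113 CPM, whose part in the *Tcf7l1* level of 9.19 CPM was not tested. The 43 lymphocyte-like cells showed the opposite mix, with 9 *Lef1* and 6 *Tcf7* UMIs and none of *Tcf7l1* or *Tcf7l2*. In this shallow class 0 UMIs still allow 50.4 CPM of either gene.

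The 6 genes commonly induced by the pathway (*Axin2*, *Nkd1*, *Lef1*, *Tcf7*, *Apcdd1* and *Sp5*) were then counted together in single cells. At least 2 of them were detected in 42.7% of outer cortex-like cells (33.9 to 51.9) and in 1.60% of other cortex-like cells (1.20 to 2.09). With cells thinned to 1000 UMIs these shares were 4.84% (1.80 to 10.2) and 0.0909% (0.0187 to 0.265). At least 1 was detected in 71.8% of outer cortex-like, 22.3% of *Cyp11b1*-high, 16.1% of adrenaline, 13.8% of noradrenaline and 3.66% of *Akr1c18*-high cells, and the thinned shares were 27.4%, 3.83%, 4.34%, 4.63% and 0.395%. Immune-like cells had 1.12% at a median of 1682.5 UMIs, and a thinned share of 0.725%. The intervals of the adrenaline (14.3 to 17.9) and noradrenaline classes (10.6 to 17.7) overlapped. At least 2 of the 6 were found in 1.12% of chromaffin-like cells.

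**Figure D5:**
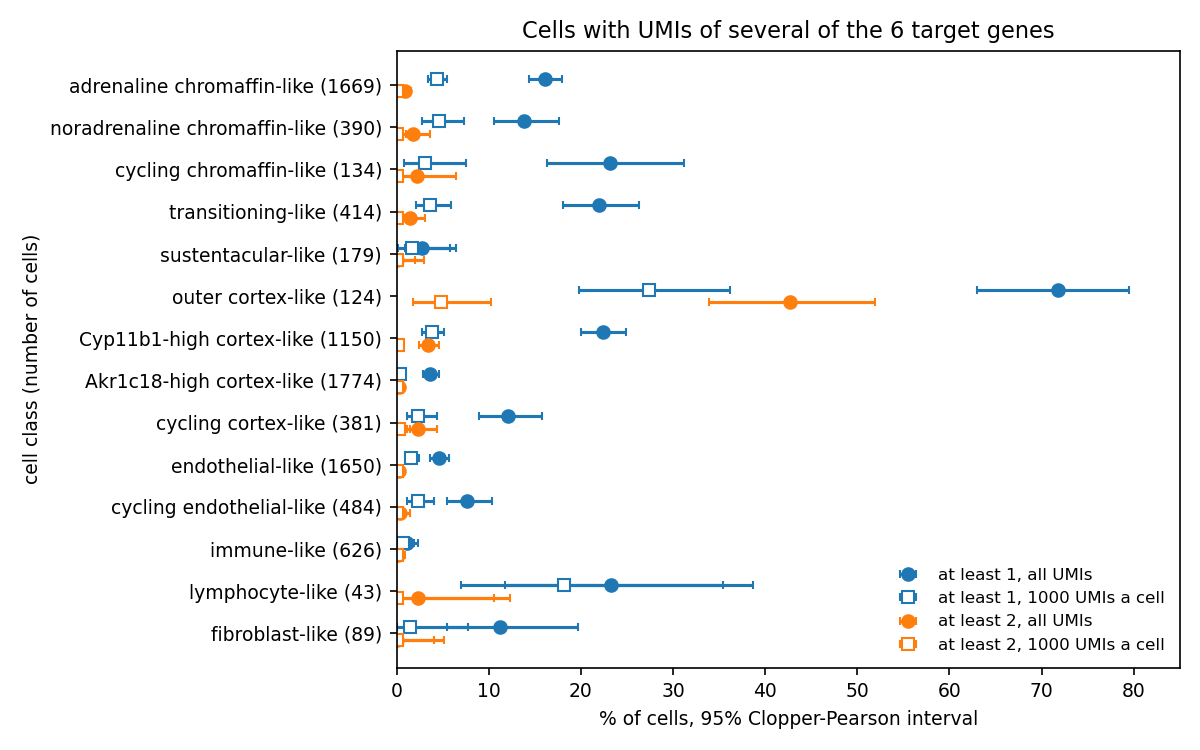
Percentage of cells with UMIs of at least 1 and at least 2 of the 6 target genes in each class, with 95% Clopper-Pearson intervals. Filled circles use all UMIs and open squares use cells thinned to 1000 UMIs. With all UMIs outer cortex-like cells reach 71.8% and 42.7%, and the next highest values are 23.3% in lymphocyte-like and 3.39% in *Cyp11b1*-high cells.

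Pairs of genes within a class showed how far the same cells held both. Of the 28 outer cortex-like cells with *Axin2*, 15 also had *Nkd1* (53.6%, 33.9 to 72.5), against 31.2% of the 96 without (22.2 to 41.5). Of the 191 adrenaline cells with *Axin2*, 1 had *Lef1* (0.524%, 0.0133 to 2.88), against 1.96% of the 1478 without (1.32 to 2.81). In the noradrenaline class 5 of 18 cells with *Axin2* had *Lef1* (27.8%, 9.69 to 53.5), against 9.14% of the 372 without (6.41 to 12.5). In each of these classes the cells with *Axin2* were deeper. The median was 5413 against 3788 UMIs in the outer cortex, 6049 against 2937.5 in adrenaline and 4870.5 against 2616.5 in noradrenaline cells. The part of depth in these shares was not tested. The intervals overlapped in each class, and the shares were not compared directly.

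Genes of the pathway upstream and beside the members were counted from fixed lists by the same 2-fold rule. Of 15 receptor genes, 14 had enough UMIs in the outer cortex against the other cortex, and 7 were higher (*Fzd2*, *Fzd3*, *Fzd5*, *Fzd6*, *Fzd9*, *Ror1* and *Ror2*) and 2 lower (*Fzd4* and *Fzd8*), where 14.4% and 12.1% of all genes were, with a median log2 ratio of 1.10 against 0 over all genes. Against *Cyp11b1*-high cells alone, 5 of 14 receptor genes were higher in the outer cortex (*Fzd2*, *Fzd5*, *Fzd6*, *Fzd9* and *Ror2*). Lower were 2 (*Fzd1* and *Fzd8*), and among all genes of that pair 10.3% were higher and 10.1% lower. The median log2 ratio of the receptor genes was then 0.22, against 0.02 over all genes. *Fzd2*, *Ror1* and *Ror2* were sparse, with highest levels of 17.6, 14.1 and 14.1 CPM, all in fibroblast-like cells on 5 UMIs or fewer. *Fzd5* was at 35.1 CPM in outer cortex-like cells (21 UMIs) and 6.93 in *Cyp11b1*-high cells, and *Fzd9* at 13.4 (8 UMIs) and 1.66 CPM. *Fzd4*, the receptor gene best known from blood vessels, was at 176 CPM in endothelial-like cells with 0 UMIs in the outer cortex-like, adrenaline and noradrenaline classes. *Fzd3* was the main Frizzled gene of the medulla, with 37.5 CPM in adrenaline, 62.2 in noradrenaline and 73.6 in sustentacular-like cells. Between noradrenaline and adrenaline cells, 0 of 6 receptor genes were higher and 1 lower (*Fzd6*), where 6.13% of all genes were higher and 8.79% lower. The co-receptor gene *Lrp6* was highest in the *Akr1c18*-high class, at 83.0 CPM, where the target genes were low.

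The destruction complex differed little within the cortex and within the chromaffin cells. Of 12 genes, 11 had enough UMIs in the outer cortex against the other cortex, and 1 was higher (*Amer1*, at 68.5 CPM in outer cortex-like and 15.0 in *Cyp11b1*-high cells) and 0 lower. Among all genes of this pair 14.4% were higher and 12.1% lower. None of the 12 differed by 2-fold between noradrenaline and adrenaline cells (median log2 ratio 0.24, against -0.01 over all genes) or between cycling and other chromaffin-like cells. All genes were higher in 6.13% and lower in 8.79% of cases for the first pair, and in 9.12% and 4.39% for the second. *Gsk3b*, its kinase gene, ranged from 101 CPM in lymphocyte-like to 328 CPM in transitioning-like cells. Of 14 co-factor and co-repressor genes, 3 were higher (*Pygo1*, *Tle2* and *Tle4*) and 2 lower (*Tle3* and *Hdac1*) in the outer cortex, where 14.4% of all genes were higher and 12.1% lower. Of 13 in noradrenaline against adrenaline cells, 2 were higher (*Pygo1* and *Tle2*) and 0 lower, where 6.13% of all genes were higher and 8.79% lower. In sustentacular-like against chromaffin-like cells 6 of the 14 were higher and 1 lower (*Tle1*), where 15% and 16% of all genes were, with a median log2 ratio of 0.81 against 0 over all genes. *Tle1*, a co-repressor gene, was at 160 CPM in adrenaline cells and at 26.0 in sustentacular-like cells.

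Other genes known as WNT targets showed other patterns. Of 16, 8 had enough UMIs in the outer cortex against the other cortex, and 2 were higher (*Znrf3* and *Ccnd1*) and 0 lower, with a median log2 ratio of 0, as over all genes. Among all genes of this pair 14.4% were higher and 12.1% lower. *Znrf3*, a feedback ubiquitin ligase gene, was at 30.1 CPM in outer cortex-like and 12.9 in *Cyp11b1*-high cells. *Lgr5*, a receptor gene for R-spondins, was at 287 CPM in adrenaline, 307 in noradrenaline, 262 in cycling and 311 in transitioning-like cells, against 4.33 CPM in sustentacular-like cells (1 UMI) and 0 in outer cortex-like cells. *Lgr5* was thus at similar levels in the chromaffin classes, whereas *Lef1* differed between the noradrenaline cells and each adrenaline cluster. *Ccnd1*, a cyclin gene, was at 732 CPM in endothelial-like cells, where *Axin2* was near 0. *Nkd2*, a relative of *Nkd1*, was at 73.6 CPM in sustentacular-like cells and 0 in noradrenaline cells.

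The last lists bear on the endothelial and lymphocyte-like rows. Of 8 genes of the endothelial barrier, 5 had enough UMIs against the cortex, 3 were higher (*Cldn5*, *Sox17* and *Plvap*) and 1 lower (*Abcb1a*), where 23.2% of all genes were higher and 22.6% lower. *Plvap*, a gene of fenestrated vessels, was at 1036 CPM in endothelial-like cells, but it was also a marker used to name them. The brain barrier genes *Slco1c1* and *Foxq1* had 0 UMIs in all 2134 endothelial-like cells. All 9 lymphocyte genes were highest in the lymphocyte-like class, but *Cd3e*, *Cd3g*, *Trac*, *Cd79a*, *Ms4a1* and *Nkg7* were also markers used to name it. The others were *Cd3d* at 554 CPM (33 UMIs), *Il7r* at 218 (13 UMIs) and *Ccr7* at 168 (10 UMIs).

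Genes most like each member were ranked by Pearson correlation of log2(CPM + 1) over the 19 clusters of all cells, among 8708 genes with at least 500 UMIs. All clusters come from 1 library and differ in depth, so the values are descriptive. *Tcf7l1* was closest to *Tcim* (r = 0.974), *Fscn1* (0.971) and *Hecw2* (0.969), and *Tcf7l2* to *Camk1* (0.952), *Spred1* (0.948) and *Fcgrt* (0.946). *Ctnnb1* was closest to *Rai14* (0.952), *Fbxl7* (0.943) and *Sorbs3* (0.942), and *Axin2* to *Azin2* (0.913), *Cbarp* (0.890) and *Usp20* (0.874). *Lef1* was closest to *Snw1* (0.878), *Cnot4* (0.809) and *Taf15* (0.801), and *Tcf7* to *Elac2* (0.853), *Wdr77* (0.849) and *Znrf2* (0.849). The values were lower for the sparse genes *Nkd1* (*Prmt1*, 0.802) and *Apcdd1* (*Bcan*, 0.797), and *Sp5* was too sparse to rank.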

How the data were processed

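The authors deposited 1 filtered matrix of whole-number UMI counts per gene and barcode, made with Cell Ranger 4.0.0 on mm10 from a Chromium 3′ library, with no normalization. The deposited counts ranged from 500 to 33809 UMIs per barcode, with a median of 3250. The annotation release is not given in the sources used here, so gene positions come from GENCODE M21 and promoters from RefSeq (GRCm38.p6). No table of proteins was used.

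Cells with 500 to 5000 genes and at most 20% mitochondrial UMIs were kept (10139, or 90.4%). R 4.3.3 with Seurat 5.3.0, built on SeuratObject 5.2.0 and Matrix 1.6.5, was run with 2000 variable features, 10 principal components and Louvain resolution 0.4. Medullary, cortex-like and endothelial-like cells were clustered again in 2 passes, and clusters with markers of another lineage were left out. For cortex and endothelium this step was added after seeing the data. A cell type was given to a cluster if 3 or more markers from the list were each detected in 50% of cells or more, with the bar lowered to 25% for sustentacular, cycling and lymphocyte markers and to 20% for outer cortex markers. Chromaffin clusters were then called adrenaline if *Pnmt* alone was detected in 50% of cells or more, and noradrenaline otherwise. The cortex clusters that were neither cycling nor outer were named from *Cyp11b1* alone, or failing that from *Akr1c18* alone, at the same 50%. These percentages were set after seeing the data. Scrublet (scanpy 1.11.5, expected rate 8%) called 669 doublets, which were kept. Python 3.11.15, numpy 2.4.6, scipy 1.17.1, pandas 2.3.3 and matplotlib 3.10.9 were used for the rest.

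A gene was called higher or lower between 2 classes with at least 20 UMIs in both together and a 2-fold ratio of CPM. A class at 0 was set to 3 counts and was never put above the other. With 1 library no model was fitted across samples. The counting of calls and intervals was tested on simulated Poisson counts. These lack variation between cells and animals and clusters drawn from the data, so they check the calculation only. All 9 members are described in every class. Of the fixed lists, genes with at least 20 CPM in 1 class could be named (6 of 15 receptor, 11 of 12 destruction complex, 12 of 14 co-factor, 8 of 16 other target, 5 of 8 barrier and 9 of 9 lymphocyte genes), and a few others were named where a count of 5 or fewer or a receptor result turned on them, chosen after their values were seen. For members with at least 100 UMIs the 3 most similar genes were ranked. The members and lists were chosen with earlier results of these data known. The comparisons of *Tcf7l1* between endothelium and chromaffin cells and of *Tcf7l2* in cycling cells were added after seeing the data. So were the division of the transitioning-like and cycling chromaffin-like cells by lineage genes and the subset of cycling cells. Alternatives were other resolutions and component numbers, stricter filters, removal of doublets, members left out of the variable features, thinning to 1000 UMIs, the mean of each cell's own CPM and detection at 2 or more UMIs.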

Additional observations from a re-analysis of the deposited data

How the results depend on the processing

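No paired analysis was possible because the series has 1 library. The limits of the values are the single pool of mice, the depth (15 UMIs of *Sp5* in all cells, for example) and the naming of classes from the same transcriptomes. Only 13 ratios were recomputed, which gave 96 values, of which 91 stayed within their interval and 5 did not. The outer cortex ratios other than that of *Axin2* and the ratios of *Cyp11b1*-high to *Akr1c18*-high cells were not among them. Nor were the ratios between clusters or those of transitioning-like and immune-like cells. Some intervals were wide, such as 0.0793 to 23.5 for *Tcf7l1* in sustentacular-like over chromaffin-like cells, so staying within them says little. Ratios past 2-fold kept their direction, whereas 3 values of ratios within counting error of 1 crossed it, namely *Axin2* in cycling cells under thinning, *Lef1* in cycling cells as the mean of each cell's own CPM (0.712, from 1.10) and *Lef1* in sustentacular-like cells without doublets (1.02, from 0.500). With every cell thinned to 1000 UMIs the *Axin2* ratio of noradrenaline to adrenaline cells was 0.301, that of cycling to other chromaffin-like cells 0.639, the *Lef1* ratio of endothelial-like to cortex-like cells 2.31 and the *Tcf7l2* ratio of cycling to other chromaffin-like cells 2.56, the last a comparison added after seeing the data. As the mean of each cell's own CPM the *Lef1* ratio of endothelial-like to cortex-like cells was 2.58. Thinning leaves few UMIs by construction, and for the mean of each cell's CPM the cause was not tested. Of 945 recomputed levels 860 stayed within their interval, 41 of the other 85 under thinning, and detection at 2 or more UMIs moved 101 of 126 shares. The outer cortex-like class had the highest *Axin2*, *Nkd1*, *Apcdd1* and *Sp5* in all 8 settings with such a class, and with the members left out of the variable features its *Axin2* was 58.3, *Nkd1* 108, *Lef1* 73.7 and *Tcf7* 77.2 CPM. *Lef1* and *Tcf7* were highest in lymphocyte-like cells except under the stricter filter (1000 genes or more, with a ceiling of 10% on mitochondrial UMIs), which left no such class, and *Tcf7* under the mean of each cell's own CPM. In the same settings *Tcf7l2* was highest in immune-like cells except under the stricter filter, where endothelial-like cells were highest. Resolution 0.2 gave no cycling chromaffin-like, outer cortex-like, lymphocyte-like or fibroblast-like class, and the stricter filter no sustentacular-like or fibroblast-like class.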

Other observations

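When the likeness of genes was ranked over the 21 clusters of the separate lineages in place of the 19 of all cells, a comparison added after seeing the data, the leading genes changed for some members and stayed for others. *Snw1* led for *Lef1* in both rankings (r = 0.878 and 0.860), and *Cbarp* was among the first 3 for *Axin2* in both (0.890 and 0.897). For *Tcf7l1* the order of *Tcim* and *Fscn1* was exchanged (0.954 and 0.956), whereas *Timp1* took the place of *Prmt1* for *Nkd1* (0.812).

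In transitioning-like cells, 4 of 37 cells with *Axin2* also had *Lef1* (10.8%, 3.03 to 25.4), against 11.4% of the 377 without (8.38 to 15.1), so the cells with *Axin2* and those with *Lef1* could not be told apart as separate sets in this class. In adrenaline cells 5 of 34 cells with *Nkd1* had *Axin2* (14.7%, 4.95 to 31.1), against 11.4% of the 1635 without (9.88 to 13.0). Both pairs of intervals overlapped.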
